A study of Mus musculus with 6 samples.

Results

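Erythroid miRNAs were examined in white adipose tissue (WAT): miR-451a (MIMAT0001632), miR-144-3p (MIMAT0000156) and miR-486a-5p (MIMAT0003130). They were chosen by name, as miRNAs known from red blood cells, with earlier results of these data known. They are 3 of the 707 mature miRNAs in the deposited count table, where each was found by its miRBase accession. All libraries came from male ApoE-deficient mice, which lack apolipoprotein E and develop high blood cholesterol. The CIH group (n = 3) was kept for 8 weeks under chronic intermittent hypoxia, in which inspired oxygen was cycled between 21% and about 6%, and the control group (n = 3) was not. The depot of the WAT, the age of the mice and the background strain are not given in the sources used here. Since all the mice lacked ApoE, effects of CIH that depend on this deficiency cannot be told apart from others. Whether blood was flushed from the tissue before RNA extraction is also not given.

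Red blood cells lose their nucleus but keep a store of miRNAs, and miR-451a is the one best known from them. The genes of miR-144 and miR-451a lie side by side and are transcribed together under the erythroid factor GATA1. miR-451a is unusual in that its hairpin is too short for Dicer and is cut by Argonaute 2 instead. It protects red cells from oxidative damage and represses Ywhaz, which encodes a 14-3-3 protein. miR-144-3p comes from the 3′ arm of its hairpin and can repress Nfe2l2, a regulator of antioxidant genes. miR-486 is encoded within Ank1, the gene of the red cell membrane protein ankyrin, and is also abundant in skeletal and heart muscle, so it marks red cells less strictly than the others.

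The mature sequences show how miR-451a and miR-144-3p differ, and are printed 5′ to 3′ with the seed, bases 2 to 8, in capitals. They were copied from RefSeq (GRCm38.p6), where 2 of the 3 members were matched by name. miR-486a-5p was not matched, so its sequence and seed are not shown. The other arm of the miR-144 hairpin is included because it comes from the same precursor.
miR-451a: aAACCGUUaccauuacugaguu
miR-144-3p: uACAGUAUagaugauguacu
miR-144-5p: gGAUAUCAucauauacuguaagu
The seeds of miR-451a and miR-144-3p were different, and neither was shared with another of the 1679 mature miRNA names in that table. Mature miR-451a has 22 bases (chr11:78073186-78073207, plus strand) and miR-144-3p has 20 bases (chr11:78073047-78073066, plus strand).

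The hairpins are shown with the mature miRNA in capitals, because the place of the mature miRNA in the hairpin separates the Dicer-independent miR-451a from miR-144-3p.
Mir451a: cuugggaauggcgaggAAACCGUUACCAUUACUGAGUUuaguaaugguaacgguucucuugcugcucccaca
Mir144: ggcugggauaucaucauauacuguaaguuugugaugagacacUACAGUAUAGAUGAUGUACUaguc
In the structure of lowest free energy, the Mir451a hairpin (72 bases) formed 30 base pairs around a terminal loop of 4 bases. Mature miR-451a ran up the 5′ side of the stem with 18 bases and on through all 4 bases of that loop. The Mir144 hairpin (66 bases) formed 27 base pairs, and all 20 bases of mature miR-144-3p lay on the 3′ side of its loop of 6 bases. On the plus strand, 99 bases separated the end of the Mir144 hairpin from the start of the Mir451a hairpin. GENCODE release M21 placed both outside of protein-coding genes. It placed Mir451b antisense to Mir451a, and mature miR-451b lay at chr11:78073219-78073239, with no base in common with mature miR-451a.

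**Figure D1:**
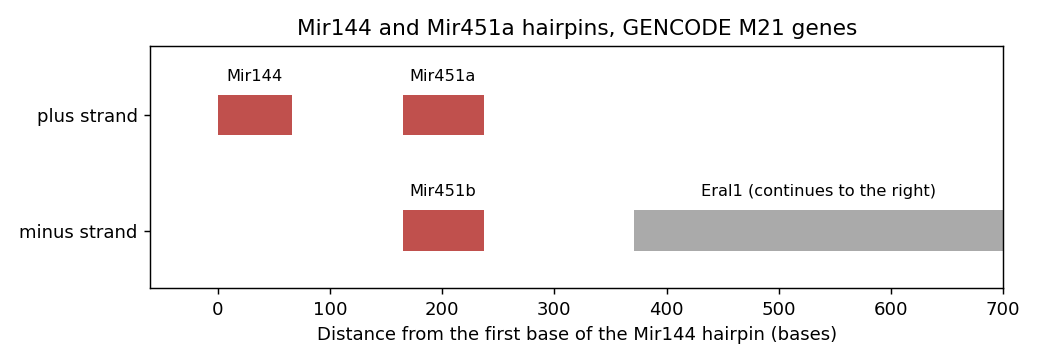
Map of the Mir144 and Mir451a hairpins on the plus strand with the genes that GENCODE M21 annotates around them, by distance in bases from the first base of the Mir144 hairpin. Mir451a starts 165 bases from that base, and Mir451b covers the same bases on the minus strand. The nearest protein-coding gene, Eral1, lies on the minus strand with its 3′ end at 371 bases.

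The libraries held between 636963 (CIH 3) and 4783768 (Control 2) counts. Levels are given as CPM, in which every library is brought to the same total, and TMM factors were applied so that a few very abundant miRNAs do not set the scale. These factors ran from 0.575 to 1.45. Before any comparison of the groups, the control libraries were not alike. Over 633 miRNAs the log2 levels of Control 3 correlated with those of Control 1 and Control 2 at 0.595 and 0.661. With those of the CIH libraries they correlated at 0.958 to 0.974. Control 1 and Control 2 correlated with each other at 0.831 and with the CIH libraries at 0.621 to 0.712. Control 1 and Control 2 also had fewer miRNAs with any count, 487 and 552, than the other libraries (631 to 649). The cause was not tested. With 3 libraries a group, a p-value sets the difference between the groups against the spread between these libraries. Nothing is said of repeat preparations from 1 mouse, and each library is taken as 1 mouse.

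The 3 erythroid miRNAs together took a small share of each library. The share was 0.0882% (95% Wilson interval 0.0834 to 0.0933%) in Control 1. It was 0.321% (0.316 to 0.326%) in Control 2 and 0.0868% (0.0805 to 0.0935%) in Control 3. In the CIH libraries it was 0.160% (0.154 to 0.166%), 0.398% (0.383 to 0.412%) and 0.731% (0.710 to 0.752%). The share of Control 2 thus lay between those of CIH 1 and CIH 2, and the groups overlapped. These intervals cover counting error only. In bulk tissue, fewer red cells, less of a miRNA in each red cell and less of it in other cells cannot be told apart.

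In all 6 libraries miR-451a was the highest of the 3, miR-486a-5p came next and miR-144-3p was the lowest. miR-451a ranked between 35 and 97 among the 707 miRNAs of a library, miR-486a-5p between 39 and 166, and miR-144-3p between 146 and 338. The levels of miR-451a and miR-486a-5p overlapped over the libraries, whereas the highest level of miR-144-3p, 121 TMM-normalized CPM, lay under the lowest of miR-486a-5p, 135. Small RNA ligation favours some miRNAs over others, so the order is one of counts and not of molecules.

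For miR-451a, the control libraries held 671, 11043 and 508 counts, or 854, 2664 and 458 TMM-normalized CPM. The CIH libraries held 2190, 1590 and 2513 counts, or 1759, 1718 and 2726 TMM-normalized CPM. Control 1 and Control 3 lay under every CIH library, and Control 2 lay just under the highest of them, so the groups overlapped. The mean level was 1325 ± 1176 for control mice (SD, n = 3) against 2067 ± 570.4 for CIH mice (SD, n = 3). The CIH libraries were within 1.59-fold of each other, and the control libraries were spread over 5.82-fold.

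For miR-144-3p, the partner of miR-451a in the same gene cluster, the control libraries held 6, 501 and 30 counts, or 7.63, 121 and 27.0 TMM-normalized CPM. The CIH libraries held 60, 17 and 24 counts, or 48.2, 18.4 and 26.03 TMM-normalized CPM. Control 2 was the highest and Control 1 the lowest of all 6, with the CIH libraries between them. The mean level was 51.8 ± 60.6 for control mice (SD, n = 3) against 30.9 ± 15.5 for CIH mice (SD, n = 3). The 6 counts of Control 1 give 4.39 CPM of the library total with a 95% Wilson interval of 2.01 to 9.58. On library totals this is under the interval of every other library, the nearest being 14.4 to 36.9 CPM in CIH 2. The TMM factors, 0.575 in Control 1 and 1.25 in CIH 2, bring these libraries closer. Whether the intervals stay apart after TMM was not tested.

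For miR-486a-5p, the control libraries held 528, 3802 and 150 counts, or 672, 917 and 135 TMM-normalized CPM. The CIH libraries held 272, 1325 and 2119 counts, or 218, 1432 and 2298 TMM-normalized CPM. CIH 2 and CIH 3 lay above every control library, whereas CIH 1 lay under Control 1 and Control 2. The mean level was 575 ± 399.97 for control mice (SD, n = 3) against 1316 ± 1045 for CIH mice (SD, n = 3). The level varied over 10.5-fold within the CIH group, more than the 6.78-fold within the control group.

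The count of miR-486a-5p carries an uncertainty that the other members do not show. A second accession, MIMAT0014943, held 535, 3804 and 153 counts in Control 1 to 3. In CIH 1 to 3 it held 281, 1331 and 2125. It differed from miR-486a-5p by 2 to 9 counts in every library. The mouse has a near-identical paralog, miR-486b, and which accession is that paralog is not stated in the table. Reads of copies that share a sequence therefore cannot be told apart here. The closest row in counts to miR-451a differed from it by up to 1581 counts, and the closest to miR-144-3p by up to 25.

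**Figure D2:**
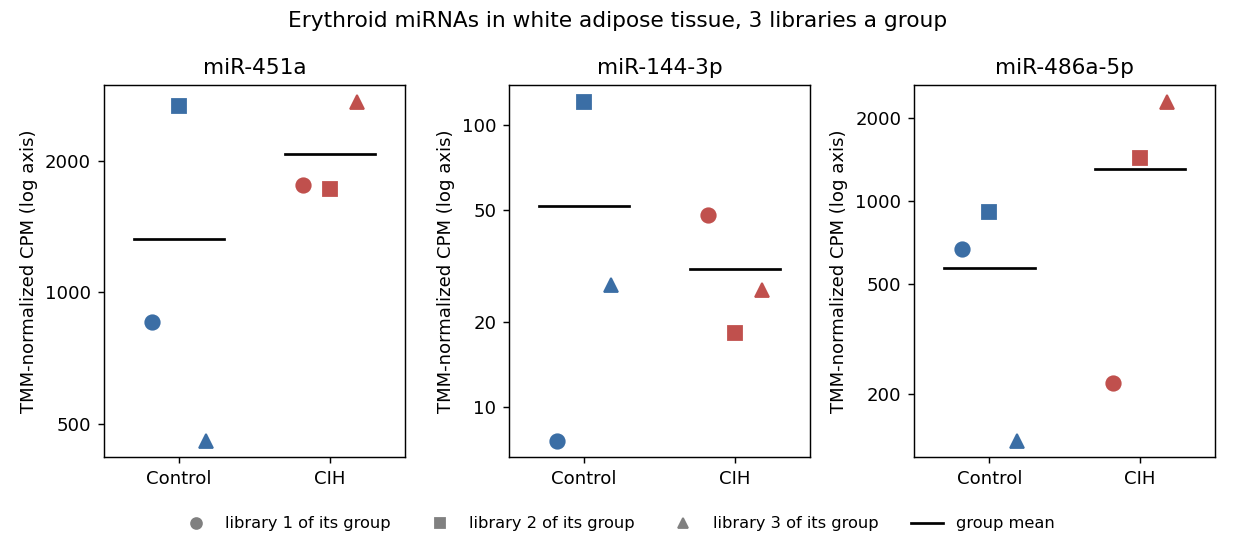
TMM-normalized CPM of miR-451a, miR-144-3p and miR-486a-5p on a log axis in the 3 control libraries and the 3 CIH libraries, with the number of the library as the marker shape and a line at the group mean. For each miRNA the groups overlap, and Control 2 is the highest control library in all 3 panels.

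The CIH and control groups were compared to ask whether the erythroid miRNAs of WAT differ under intermittent hypoxia. The log2 fold change of miR-451a was 0.64 (standard error 0.81, 95% interval -1.30 to 2.58), or 1.56-fold, with a Benjamini-Hochberg adjusted p of 0.882 by the quasi-likelihood test of edgeR. That of miR-144-3p was -0.76 (standard error 1.02, 95% interval -3.20 to 1.69), or 0.592-fold, with the same adjusted p of 0.882. That of miR-486a-5p was 1.19 (standard error 1.07, 95% interval -1.36 to 3.75), or 2.29-fold, also at 0.882. None of the differences was larger than the spread between libraries allows, and each interval holds changes of both signs. Each interval passes 2 on the log2 scale in 1 direction, so a change of that size is not excluded for any of the 3.

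Of the 3 miRNAs, 0 had an adjusted p under 0.05 from edgeR, against 0% of the 633 miRNAs tested, and DESeq2 and limma voom also gave 0 of 633. At an unadjusted p under 0.05 with a change of at least 1.5-fold, 0 of the 3 were called, against 2.53% of those tested (16 miRNAs). Groups that did not overlap were found for 0 of the 3, against 8.06% of those tested. The median log2 fold change of all 633 was 0.07. A change as large as that of miR-486a-5p in either direction was found for 33.8% of them.

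The spread of the members followed that of the other miRNAs in part. The coefficient of variation over the control libraries was 88.8% for miR-451a, 117% for miR-144-3p and 69.6% for miR-486a-5p, and the median over the 401 miRNAs tested with a mean of at least 10 CPM was 84.5%. Over the CIH libraries it was 27.6% for miR-451a, near the median of 27.4%. It was 50.2% for miR-144-3p and 79.4% for miR-486a-5p, both above that median.

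Single libraries set the direction of miR-144-3p and the size of the others. Without Control 2, the log2 fold change of miR-144-3p was 0.87 in place of -0.76, and that of miR-451a was 1.74 (unadjusted p = 0.0387, adjusted p = 0.968 by the same edgeR test). Without Control 2, miR-451a was 1 of 18 miRNAs at an unadjusted p under 0.05 with a change of at least 1.5-fold (3.13% of 575 tested). Control 2 was also the library with the most counts, and the part of its depth in these levels was not tested. Without Control 3, the log2 fold changes of miR-451a, miR-144-3p and miR-486a-5p were 0.21, -1.09 and 0.71, with adjusted p of 0.837, 0.481 and 0.613. In that fit 118 of the 614 miRNAs tested (19.2%) had an adjusted p under 0.05, and 0 of the 3 erythroid miRNAs were among them. Without CIH 3 the log2 fold changes of miR-451a and miR-486a-5p were 0.38 and 0.51. Without CIH 1, that of miR-144-3p was -1.23 and that of miR-486a-5p 1.71, and without CIH 2 that of miR-144-3p was -0.49. Without Control 1 the log2 fold change was 0.40 for miR-451a and -1.27 for miR-144-3p.

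**Figure D3:**
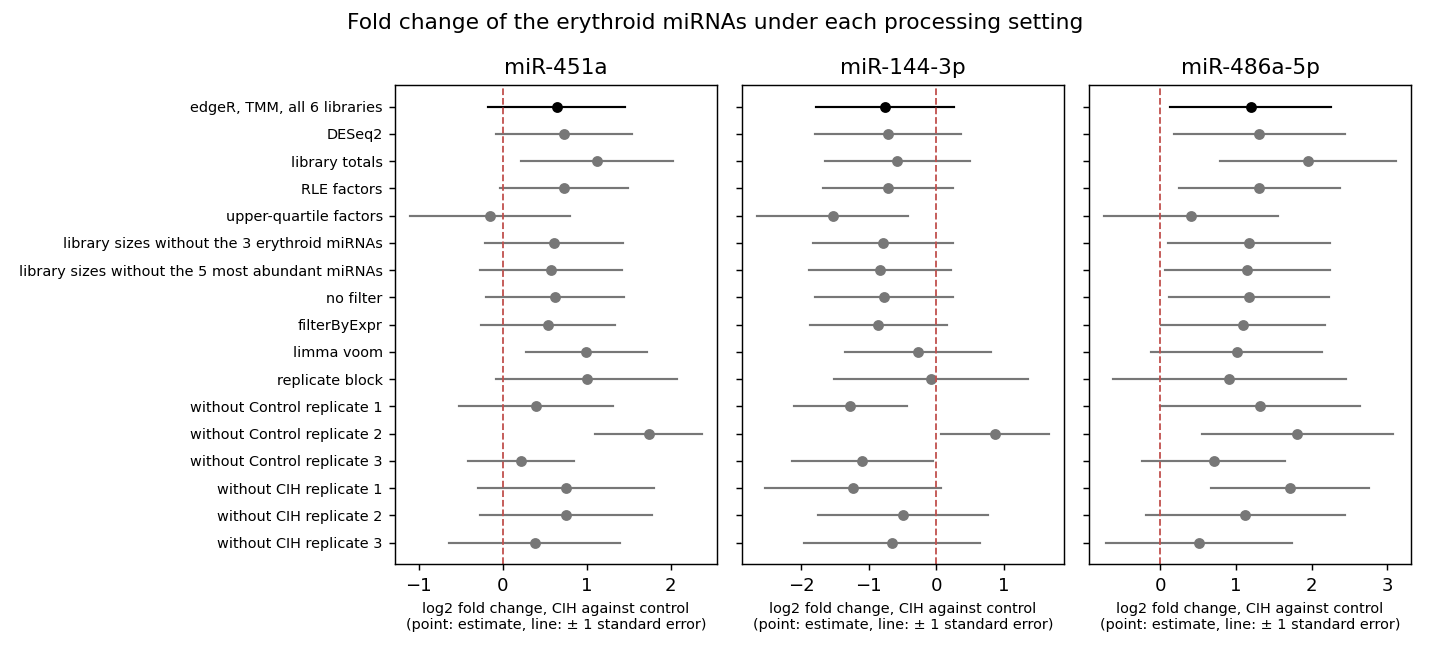
Log2 fold change of the CIH group against the control group for each erythroid miRNA under each processing setting, with lines of 1 standard error on either side and a dashed line at 0. miR-486a-5p lies above 0 in every setting, miR-451a in all but the upper-quartile factors (-0.15), and miR-144-3p lies under 0 in all but the fit without Control 2 (0.87).

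The scaling of the libraries moved the median of all miRNAs and the members by unequal amounts. Among the other scaling factors and library sizes, the median log2 fold change of the miRNAs tested ran from -0.52 with upper-quartile factors to 0.33 with library totals. Upper-quartile factors turned miR-451a to -0.15, which was 0.37 above the median of all miRNAs, and left miR-486a-5p at 0.93 above it and miR-144-3p at -1.02 from it. With library totals miR-451a was 0.79 and miR-486a-5p 1.62 above the median, and miR-144-3p was at -0.91 from it. With the TMM factors these distances were 0.57, 1.12 and -0.83.

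Ratios of the members within a library do not depend on its total or on the scaling, and they address whether the erythroid miRNAs kept a fixed proportion to each other. For each 100 counts of miR-451a, Control 1 held 78.7 counts of miR-486a-5p (95% Wilson interval 70.2 to 88.2), CIH 2 held 83.3 (77.5 to 89.6) and CIH 3 held 84.3 (79.6 to 89.3). Control 2 held 34.4 (33.2 to 35.7) and Control 3 held 29.5 (24.6 to 35.4). CIH 1 held 12.4 (10.95 to 14.1), the lowest of all. The intervals of Control 1, CIH 2 and CIH 3 overlapped each other and did not overlap those of the other libraries. These intervals cover counting error only, and the libraries come from separate samples, so the spread within a group also holds the differences between samples.

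The proportion of miR-144-3p to its cluster partner miR-451a ranged within each group as well. For each 100 counts of miR-451a there were 0.894 counts of miR-144-3p in Control 1 (0.408 to 1.96), 4.54 in Control 2 (4.15 to 4.96) and 5.91 in Control 3 (4.09 to 8.52). In the CIH libraries there were 2.74 (2.12 to 3.54), 1.07 (0.666 to 1.72) and 0.955 (0.641 to 1.42). The lowest values were those of Control 1, CIH 2 and CIH 3, which had the highest values in the ratio of miR-486a-5p to miR-451a. Their intervals, which cover counting error only, overlapped. For each 100 counts of miR-486a-5p there were 1.14, 13.2 and 20.0 counts of miR-144-3p in Control 1 to 3. In CIH 1 to 3 there were 22.1, 1.28 and 1.13. In this ratio CIH 1 stood with Control 2 and Control 3, and Control 1 with CIH 2 and CIH 3. The ratio of miR-144-3p to miR-486a-5p is fixed by the ratios of both to miR-451a, so it adds no separate observation.

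Between the groups these proportions did not separate. The log2 ratio of miR-144-3p to miR-451a was -5.07 ± 1.42 for control mice (SD, n = 3) and -6.12 ± 0.822 for CIH mice (SD, n = 3), with CIH lower (difference -1.05, two-sided exact permutation test, p = 0.4). The log2 ratio of miR-486a-5p to miR-451a was -1.21 ± 0.760 (SD, n = 3) and -1.17 ± 1.59 (SD, n = 3) (difference 0.04, same permutation test, p = 0.8). That of miR-144-3p to miR-486a-5p was -3.86 ± 2.18 (SD, n = 3) and -4.95 ± 2.41 (SD, n = 3) (difference -1.09, same permutation test, p = 0.9). The Benjamini-Hochberg adjusted p over the 3 ratios was 0.9 for each permutation test, and 0.1 is the smallest p that 3 libraries against 3 allow. The difference for miR-486a-5p to miR-451a changed sign when any one of Control 2, Control 3, CIH 2 or CIH 3 was left out, and it ran from -0.42 to 0.96 over the libraries left out in turn. The difference for miR-144-3p to miR-451a was -0.55 without Control 3, -1.86 without Control 1 and between these values without any other library.

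**Figure D4:**
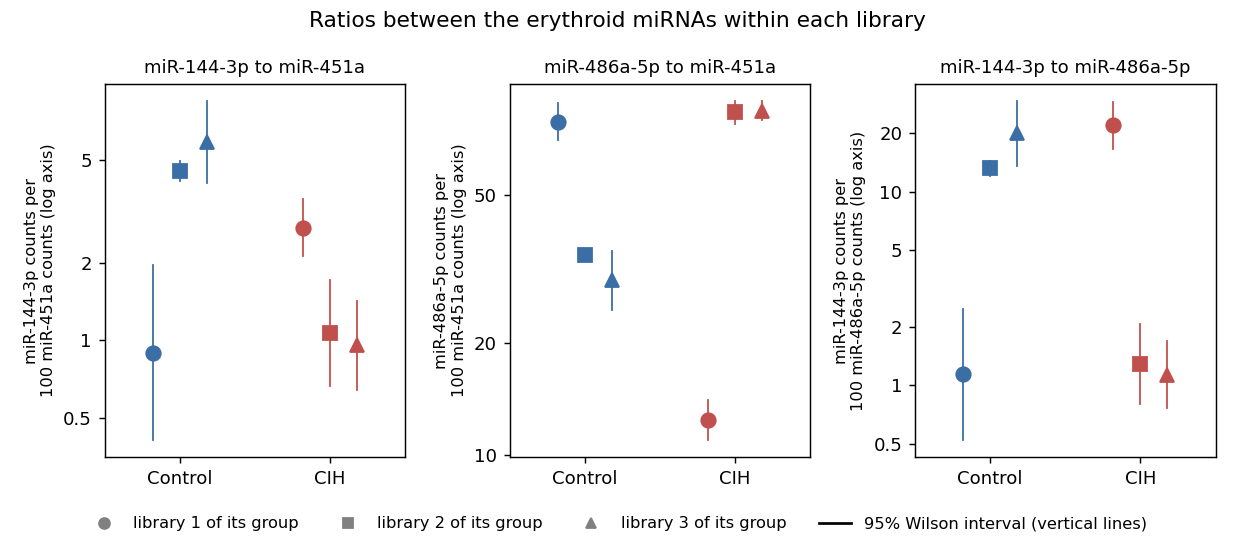
Counts of one erythroid miRNA for each 100 counts of another in the same library, on log axes, with the 95% Wilson interval of the counts as a vertical line. Control 1, CIH 2 and CIH 3 lie close together in each panel, at 78.7, 83.3 and 84.3 counts of miR-486a-5p for each 100 of miR-451a, while CIH 1 is at 12.4. The panel of miR-144-3p to miR-486a-5p follows from the other panels.

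Over the 6 libraries, the log2 levels of miR-451a and miR-486a-5p correlated at Pearson's r = 0.711 (permutation p = 0.144) and Spearman's rho = 0.714 (permutation p = 0.136). Those of the cluster partners miR-451a and miR-144-3p correlated at r = 0.496 (permutation p = 0.317) and rho = 0.371 (permutation p = 0.497). For miR-486a-5p and miR-144-3p r was -0.0975 (permutation p = 0.85) and rho was -0.257 (permutation p = 0.658). Adjusted over the 3 pairs by Benjamini-Hochberg, the permutation p of r was 0.433, 0.475 and 0.85 and that of rho was 0.408, 0.658 and 0.658. Without the 2 libraries farthest from the median of the first miRNA named, r was 0.526, 0.433 and 0.128. With library totals in place of TMM factors, r for the 3 pairs in the same order was 0.776, 0.615 and 0.118 (permutation p = 0.0917, 0.231 and 0.906). Without the 2 libraries farthest from the median on that scale, r was 0.909, 0.0422 and 0.176. The values without 2 libraries thus depend on the scaling. The values of 1 library share its scaling, and neither group holds enough libraries for a correlation of its own.

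The miRNAs most like each member were sought among 400 others with a mean of at least 10 CPM, by Pearson's r of the log2 levels over the 6 libraries, and are given by accession. For miR-486a-5p these were MIMAT0014943 (r = 0.99998), MIMAT0000666 (r = 0.972) and MIMAT0000246 (r = 0.908). The first of these is the accession that differed from miR-486a-5p by 2 to 9 counts in every library, so it may not be a separate observation. MIMAT0000246 was also the one most like miR-451a (r = 0.883), followed by MIMAT0000159 (r = 0.846) and MIMAT0000747 (r = 0.741). For miR-144-3p they were MIMAT0000535 (r = 0.973), MIMAT0000672 (r = 0.970) and MIMAT0000650 (r = 0.969). All of these r values were picked as the highest of 400 over only 6 libraries, which favours high values, and none was tested. The members were thus not among the nearest 3 of each other, and the nearest of miR-451a were less like it than those of the other members were. miRNAs of white blood cells, endothelium and muscle were not analysed here, so their part in these levels was not tested.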

How the data were processed

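Small RNA libraries were made from TRIzol-extracted total RNA of WAT, 3 from control and 3 from CIH mice, and sequenced on an Illumina instrument. The deposited table holds the authors' raw counts of reads on 707 mature miRNAs, by miRBase accession. The trimming, the aligner, the miRNA database release, the genome build and the treatment of reads matching several miRNAs are not given in the sources used here; counting such reads for several miRNAs would make paralogs look alike. Libraries were assigned to groups by their labels.

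The miRNAs with a sum of at least 10 counts (633) were tested with edgeR 4.0.16 in R 4.3.3 by the quasi-likelihood test after TMM normalization, with group as the only term and Benjamini-Hochberg adjustment over all of them. All 3 erythroid miRNAs passed this filter. Standard errors were taken as the log2 fold change over the root of the F statistic. Ratios used log2 counts with 0.5 added and an exact permutation test (scipy 1.17.1, Python 3.11.15). Likeness used a prior count of 2. Alternatives were DESeq2 1.42.0, limma 3.58.1 with voom, other scaling factors, library sizes and filters, a replicate block and each library left out in turn. Hairpins were folded with RNAfold (ViennaRNA 2.7.2). The scripts were tested on simulated data. The members and lists were chosen with earlier results of these data known. The miRNAs named are the 3 members and, for each, the 3 most like it. A further 8 lists (38 miRNAs of red cells, white cells, endothelium, muscle, pancreas and adipose tissue, other arms, and miR-23a-3p as a hemolysis reference) were not run, because accessions are not paired with names in the files used here.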

Additional observations from a re-analysis of the deposited data

How the results depend on the processing

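None of the 3 erythroid miRNAs had an adjusted p under 0.05 in any of the 16 alternatives, where it ran from 0.590 to 0.975 for miR-451a, from 0.481 to 0.993 for miR-144-3p and from 0.613 to 0.975 for miR-486a-5p. The log2 fold change of miR-451a turned to -0.15 with upper-quartile factors and that of miR-144-3p to 0.87 without Control 2, whereas that of miR-486a-5p stayed positive in all 16. With each library left out in turn, they ran from 0.21 to 1.74, from -1.27 to 0.87 and from 0.51 to 1.81. The difference in the log2 ratio ran from -0.42 to 0.96 for miR-486a-5p to miR-451a (-0.12 without Control 2, -0.23 without Control 3, -0.41 without CIH 2), from -1.86 to -0.55 for miR-144-3p to miR-451a and from -2.48 to -0.32 for miR-144-3p to miR-486a-5p. Over all miRNAs, 16 passed an unadjusted p under 0.05 with a 1.5-fold change, against 26 with DESeq2, 39 with upper-quartile factors, 8 with edgeR's filterByExpr (407 tested) and 75 with limma voom, and from 1 (without CIH 3) to 225 (without Control 3) with each library left out. The number with an adjusted p under 0.05 was 0 except without Control 3 (118). The cause was not tested.

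The labels number the libraries alike in both groups, and after subtraction of the group mean the log2 levels of libraries 1, 2 and 3 correlated across groups at 0.353, -0.116 and 0.0195. With 3 libraries a group, these values cannot show whether the libraries were paired. The libraries were treated as unpaired because the study compared its groups as unpaired. With the replicate number as a block, the log2 fold changes were 0.999, -0.08 and 0.91 for miR-451a, miR-144-3p and miR-486a-5p, and 3 of all miRNAs passed the unadjusted criteria. The block cannot change the mean difference of the log2 ratios, which has the same 3 libraries a group. The ratio of miR-451a to miR-23a-3p was not run, because the row of miR-23a-3p could not be found by name. The ratios of miR-144-3p rest on only 6 counts of it in Control 1.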
